A study of Mus musculus with 6 samples.

Results

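Endothelial cells control where blood clots, and 8 genes of that control are described here in endothelium sorted from mouse brain and from brain tumors. Vwf encodes von Willebrand factor, which tethers platelets. F3 encodes tissue factor, the starter of the clotting cascade, and Tfpi encodes its inhibitor. Thbd and Procr encode thrombomodulin and the endothelial protein C receptor of the anticoagulant protein C pathway. Plat and Plau encode the tissue-type and urokinase-type plasminogen activators, which start the lysis of fibrin, and Anxa2 encodes annexin A2, a surface docking protein for plasminogen and its activator. The genes were taken by symbol, a rule that uses no measured value, though the list was drawn up with earlier results of these data known. All 8 were found among the 24421 symbols of the files.

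The study asked how vessels of high-grade glioma differ at the molecular level from vessels of the brain. Both groups were C57BL/6 mice, per the labels. The normal group held 3 libraries of sorted endothelial cells from normal brain. The glioma group held 3 libraries of sorted endothelial cells from tumors, taken 3 weeks after GL26l glioma cells were injected into the brain. This is a transplanted line in a congenic host, and the age of the mice, the markers of the sort and any pooling of animals were not given in the sources used here. The design text calls the RNA sets independent but names no animal for each, and p-values therefore reflect only the spread of these libraries, which may be technical.

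Clotting starts when tissue factor meets factor VII of the plasma, and Tfpi blocks that complex. Thrombin bound to thrombomodulin no longer clots fibrinogen but activates protein C, which Procr holds at the cell surface. Plasmin, made from plasminogen by the products of Plat or Plau, dissolves fibrin. In healthy brain tissue factor is known mainly from perivascular cells and astrocytes rather than from endothelium.

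Libraries differed in ways that touch several of the genes. The values are deposited log2(x + 1) levels made equal in distribution across libraries, so depth is unknown. They come from the 3′ end of transcripts, so levels of different genes can be set side by side without a length correction. Genes above 0 numbered from 7446 in normal replicate 1 to 13108 in glioma replicate 1, and the lowest value above 0 was smallest in normal replicate 3 (0.22) and largest in normal replicate 1 (7.43). Across the 5880 genes above 0 in every library, normal replicates 2 and 3 had a Pearson correlation of 0.97, against 0.58 and 0.60 for normal replicate 1 with each of them. Glioma replicates 2 and 3 had 0.75, against 0.67 and 0.54 for glioma replicate 1 with each of them. Genes are no independent replicates, so these values only describe the libraries. In each group, replicates 2 and 3 share a number in their column headers that replicate 1 does not have. Its meaning is not given. No such number spans both groups, so in the comparison of glioma with normal it cannot be told apart from the group. Within each group it sets replicate 1 apart from replicates 2 and 3. All 10 endothelial markers were above 0 in every library. Values set as a series of 3 follow the order of replicates 1, 2 and 3. Genes listed at 0 get no group mean, since the lowest value above 0 differs between libraries.

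Of the 8 genes, 5 were above 0 in all 6 libraries (Vwf, Thbd, Procr, Plat and Anxa2), Tfpi in 5, F3 in 2 and Plau in 1. Anxa2 had the highest level of the 8 in each library except glioma replicate 3, where Plat was higher. The order of mean levels in the normal group was Anxa2, Plat, Vwf, Thbd and Procr. The gaps from Anxa2 to Plat (1.63) and from Plat to Vwf (1.36) were larger than the SD of either gene, though Plat was above Vwf in only 2 of 3 normal libraries. The gaps from Vwf to Thbd (0.16) and from Thbd to Procr (0.49) were smaller than the spread. In the glioma group the order was Anxa2, Plat, Vwf, Tfpi, Procr and Thbd, and no gap between neighbours was larger than the spread. Glioma minus normal was tested with limma for the 11862 genes that reached a linear value of 1 in 3 or more libraries, which included 6 of the 8 and left out F3 and Plau. After Benjamini-Hochberg adjustment 0 of the 6 had a p under 0.05, beside 0% of all genes tested. At an unadjusted p under 0.05 stood 0 of the 6 and 509 genes in all (4.29%). The median difference was 0.18 over the 6 and 0.05 over all genes tested, with 3 of the 6 above 0.

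**Figure D1:**
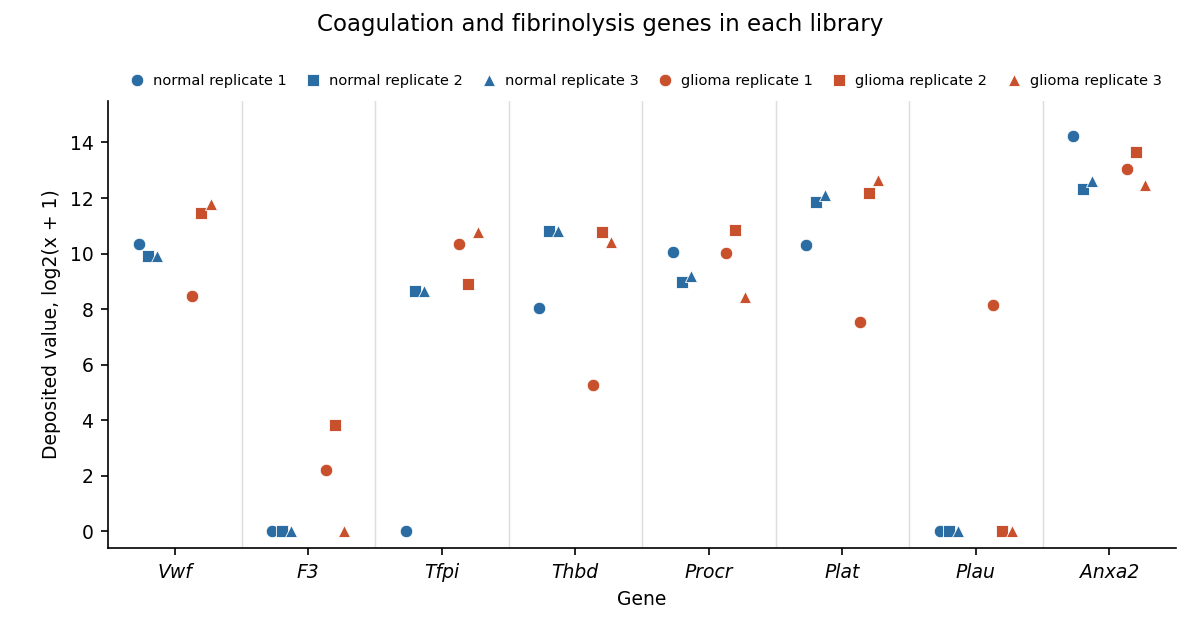
Deposited log2(x + 1) value (vertical axis) of each of the 8 genes (horizontal axis) in the 3 normal (blue) and 3 glioma (orange) libraries, 1 marker shape for each replicate. Glioma replicate 1 has the lowest value of the 6 libraries for Vwf, Thbd and Plat, and is the only library with Plau above 0.

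Vwf spans 125546774 to 125686679 on the plus strand of chromosome 6 (mm10, GENCODE annotation), with 52 exons in its principal transcript. Normal libraries read 10.35, 9.91 and 9.93, and glioma libraries read 8.47, 11.46 and 11.79. Glioma replicates 2 and 3 stood above every normal library, and glioma replicate 1 stood below all of them. The means were 10.06 ± 0.25 and 10.57 ± 1.83 (SD, n = 3 each), a difference of 0.51 (SE 0.87, 95% interval -1.47 to 2.48, limma adjusted p = 0.909). Without glioma replicate 1 the difference was 1.56 (SE 0.44, limma adjusted p = 0.775), and without glioma replicate 3 it was -0.10. On the linear scale Vwf was at 353.2 in glioma replicate 1, at 2811 and 3543 in glioma replicates 2 and 3, and between 961.7 and 1302 in the normal libraries.

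Platelets and megakaryocytes also carry Vwf transcripts, so their markers are given beside it. Of 10 such markers 5, 6 and 6 were above 0 for normal, against 7, 2 and 1 for glioma. Their summed level ranged from 9.12 to 11.72 in normal and from 5.60 to 11.94 in glioma libraries, on a log2 scale. The glioma libraries with the higher Vwf values, replicates 2 and 3, had the lower platelet sums (8.99 and 5.60). Ppbp and Gp9 were at 0 in every glioma library, and Pf4 was above 0 only in the first replicate of each group (8.96 and 9.06). In glioma replicate 2, Gp1bb was at 8.38 and Itga2b at 7.44, while both were at 0 in glioma replicate 3. The part of platelets in the Vwf values was not tested. In bulk RNA, fewer cells of a type and less RNA per cell cannot be told apart.

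Other genes of the von Willebrand factor route gave 15 tested members of a list of 18, with 0 wholly higher and 1 wholly lower in glioma (6.91% and 6.37% of all genes) and a median difference of 0.35. The list holds the cargo and the secretion machinery of Weibel-Palade bodies, the storage granules of endothelium. Stxbp5, a brake on vesicle fusion, was at 9.93, 8.98 and 8.95 for normal, against 7.97, 8.60 and 7.70 for glioma (difference -1.20, SE 0.79, limma adjusted p = 0.875). Like Vwf, Igfbp7, a granule protein, stood above every normal library in glioma replicates 2 and 3 and below all in glioma replicate 1. Igfbp7 was at 12.52, 12.81 and 12.85 for normal, against 9.99, 14.71 and 16.15 for glioma. Among normal libraries, replicate 1 was the lowest for Igfbp7 and the highest for Vwf. Angpt2, another granule cargo and a Tie2 ligand, did not share that placement of the glioma libraries, at 13.15, 8.70 and 8.67 against 10.94, 11.67 and 12.08. Edn1, the vasoconstrictor endothelin, was at 11.88, 10.76 and 11.29 for normal, against 9.85, 10.62 and 10.78 for glioma. Mmrn2 of the endothelial matrix was at 12.52, 11.66 and 11.97 against 11.59, 12.09 and 12.58.

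F3 lies at 121723537 to 121735048 on the plus strand of chromosome 3, with 6 exons. No normal library listed tissue factor transcripts above 0, and the glioma libraries listed them at 2.22, 3.82 and 0. The 3.82 is the lowest value above 0 in glioma replicate 2, where 257 genes hold it, and on the linear scale the values above 0 were 3.67 and 13.2. F3 did not enter the test.

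Upstream sequence is shown for 3 of the 8 genes that lie at opposite ends of the level range, from F3 near 0 to Anxa2 near the top, because each holds a match to TGANTCA, the core of sites for AP-1, the dimer of Jun and Fos proteins. The windows come from RefSeq (GRCm38.p6) and are shown 5′ to 3′ on the plus strand up to the annotated gene start. The parts shown are chr3:121723287-121723536 for F3, chr2:155750967-155751116 for Procr and chr9:69453433-69453619 for Anxa2. Capitals mark the matches.
F3: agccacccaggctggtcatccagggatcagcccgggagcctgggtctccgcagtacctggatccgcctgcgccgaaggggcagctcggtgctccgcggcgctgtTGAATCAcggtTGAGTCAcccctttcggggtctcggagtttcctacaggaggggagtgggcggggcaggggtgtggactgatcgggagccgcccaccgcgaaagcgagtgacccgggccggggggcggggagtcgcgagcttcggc
Procr: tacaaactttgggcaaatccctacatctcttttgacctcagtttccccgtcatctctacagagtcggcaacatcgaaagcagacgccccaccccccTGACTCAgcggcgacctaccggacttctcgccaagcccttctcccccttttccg
Anxa2: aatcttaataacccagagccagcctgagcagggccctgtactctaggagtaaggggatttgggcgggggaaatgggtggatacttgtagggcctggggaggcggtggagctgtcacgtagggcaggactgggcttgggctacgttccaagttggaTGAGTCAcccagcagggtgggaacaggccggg

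F3 held 2 matches, TGAATCA and TGAGTCA, starting 146 and 135 bases before the RefSeq start site. The match of Procr, TGACTCA, started 154 bases before it, and that of Anxa2, TGAGTCA, 95 bases before it. The motif is its own reverse complement, so both strands are covered, and no other motif was searched. It was present in 6.75% of 32851 RefSeq promoter windows of 250 bases, and in 7.82% of the 27025 genes with a window. All 250 bases were searched for each gene, though only 150 are shown for Procr and 187 for Anxa2. Of the 8 genes 4 had a window, 3 of these with a match, and Tfpi held none. A match is a description of letters, not a bound site. Jun was at 12.08, 13.45 and 13.82 for normal, against 12.81, 13.62 and 14.01 for glioma. Fos was at 9.88, 11.72 and 11.81 against 10.25, 11.64 and 13.86. F3 was at 3.82 or below in each of these libraries. The part of Jun and Fos in the levels of F3, Procr and Anxa2 was not tested.

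Tfpi, the inhibitor of the tissue factor complex, lies at 84432855 to 84476775 on the minus strand of chromosome 2, with 10 exons. It was listed at 0 in normal replicate 1 and at 8.64 in both other normal libraries, and at 10.35, 8.91 and 10.77 in glioma replicates 1, 2 and 3. Every glioma library stood above every normal library, and Tfpi was the only one of the 8 genes with that pattern. The nearest libraries were normal replicate 3 (8.64) and glioma replicate 2 (8.91). Among all genes tested 6.91% were wholly higher and 6.37% wholly lower in glioma, beside 1 of 6 and 0 of 6 here. The fitted difference was 4.25 (SE 2.23, 95% interval -0.84 to 9.34, limma adjusted p = 0.875). Normal replicate 1 holds no value between 0 and 7.43. Without that library the Tfpi difference was 1.37 (SE 0.69, limma adjusted p = 0.537), and with every value raised to the floor of 7.43 it was 1.77 (SE 0.70, limma adjusted p = 0.770). On the linear scale Tfpi was at 397.8 and 398.2 in the normal libraries above 0, against 1306, 479.5 and 1747 for glioma.

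Thbd is a single-exon gene at 148404466 to 148408188 on the minus strand of chromosome 2. Thrombomodulin read 8.06, 10.83 and 10.83 in the normal group, against 5.25, 10.78 and 10.41 in glioma. The first replicate was the low one in both groups, and the other 4 libraries lay between 10.41 and 10.83. Means were 9.90 ± 1.60 in normal and 8.81 ± 3.09 in glioma (SD, n = 3 each), a difference of -1.09 (SE 1.49, 95% interval -4.48 to 2.31, limma adjusted p = 0.892). Without glioma replicate 1 it turned to 0.69 (limma adjusted p = 0.835), and without normal replicate 1 it was -2.01 (limma adjusted p = 0.674).

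Procr, on the plus strand of chromosome 2 at 155751117 to 155755471 with 4 exons, did not share that shape. Normal libraries read 10.05, 8.98 and 9.21, and glioma libraries 10.03, 10.86 and 8.43. The glioma libraries spanned the whole normal range, with the highest and the lowest value of all. The difference was 0.36 (SE 0.77, 95% interval -1.40 to 2.12, limma adjusted p = 0.936), from 9.42 ± 0.56 to 9.77 ± 1.24 (SD, n = 3 each), and it turned to -0.18 without glioma replicate 2. Thbd minus Procr within a library was -2.0, 1.84 and 1.62 for normal, against -4.78, -0.08 and 1.98 for glioma. Thrombomodulin was thus the lower of the pair in both first replicates and in glioma replicate 2.

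Other anticoagulant genes numbered 12, of which 5 were tested, with 1 wholly higher and 0 wholly lower in glioma (6.91% and 6.37% of all genes) and a median difference of -0.12. Protein C itself (Proc) was listed at 0 in every library, while its cofactor protein S (Pros1) was at 7.79, 11.45 and 11.64 for normal, against 9.19, 11.11 and 10.22 for glioma. Gas6, the relative of protein S, was at 10.01, 12.15 and 12.48 against 8.09, 11.99 and 11.95, low in the first replicate of each group as Thbd was. Hs3st1, which makes the heparan sulfate that binds antithrombin, was at 8.55, 10.79 and 10.67 for normal, against 0, 9.65 and 8.69 for glioma. Serpinc1, the antithrombin gene, was at 0, 2.84 and 2.46 for normal, against 7.48, 6.38 and 6.16 for glioma (difference 4.90, SE 2.24, limma adjusted p = 0.875). With every value raised to the floor of 7.43 the Serpinc1 difference was 0.017, and on a log2(value + 100) scale it was 0.99. The 6.38 and 6.16 lie under 7.43, the lowest value above 0 in normal replicate 1. The count of Serpinc1 as wholly higher thus rests on a 0 that cannot be resolved below 7.43. Serpine2, an inhibitor of thrombin, was at 0, 10.50 and 10.45 against 9.14, 9.54 and 9.39, so glioma was the lower group without normal replicate 1.

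Clotting factors were mostly at 0. Of 19 genes for factors and thrombin receptors, 8 were at 0 in all libraries, among them prothrombin (F2), and only 3 were tested. Of these 3, 2 were wholly higher and 0 wholly lower in glioma (6.91% and 6.37% of all genes). F2r, the main thrombin receptor PAR1, was at 0, 5.91 and 6.86 for normal, against 11.63, 8.54 and 10.05 for glioma. Its groups did not overlap (difference 5.82, SE 2.06, limma adjusted p = 0.875), and the difference was 3.69 without normal replicate 1, where the gene was listed at 0, and 2.65 at the floor of 7.43. F10, the factor X gene, was also wholly higher, at 0, 3.92 and 3.37 for normal, against 8.08, 4.07 and 5.48 for glioma (difference 3.45, SE 2.42, limma adjusted p = 0.875). The 4.07 lies near the lowest value above 0 in glioma replicate 2 (3.82). Both the 4.07 and the 5.48 lie under 7.43, the lowest value above 0 in normal replicate 1. The count of F10 as wholly higher thus rests on a 0 that cannot be resolved below 7.43. The F10 difference was 2.23 without normal replicate 1, 0.77 on the log2(value + 100) scale and 0.22 at the floor of 7.43. F5 was at 8.11, 0 and 5.24 against 5.51, 5.06 and 0, and F7, the partner of tissue factor, was above 0 only in glioma replicate 3 (8.28).

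Plat, the tissue-type activator gene, was above 0 in all 6 libraries. It lies at 22757727 to 22782844 on the plus strand of chromosome 8, with 14 exons. Normal libraries read 10.32, 11.87 and 12.09, and glioma libraries 7.53, 12.17 and 12.65. As for Vwf, glioma replicates 2 and 3 stood above all normal libraries and glioma replicate 1 below all of them. Means were 11.43 ± 0.97 and 10.78 ± 2.83 (SD, n = 3 each), a difference of -0.64 (SE 1.25, 95% interval -3.48 to 2.20, limma adjusted p = 0.925). Without glioma replicate 1 it turned to 0.98 (SE 0.62, limma adjusted p = 0.775). In rank, Plat was the 413th and 622nd highest symbol in glioma replicates 3 and 2 and the 7123rd in glioma replicate 1.

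Plau, at 20836660 to 20843385 on the plus strand of chromosome 14 with 11 exons, was listed at 0 in 5 of 6 libraries and at 8.17 in glioma replicate 1. In that library Plau stood above Plat (Plat minus Plau -0.63), while in the other 5 Plat was at 10.32 to 12.65 with Plau at 0. Glioma replicate 1 also had 9 of 10 fibroblast markers, 13 of 16 microglial and macrophage markers and 5 of 7 granulocyte markers above 0, the most of any library for each list. The same held for erythroid (7 of 7), glioma or neural progenitor (8 of 8) and platelet (7 of 10) markers. That library had the most genes above 0 of all (13108) and a lowest value of 0.415, so such counts are not comparable between libraries. Fibroblast markers summed to a log2 level of 11.98 there, against 9.93, 7.72 and 6.87 in the normal libraries and 9.46 and 5.71 in glioma replicates 2 and 3. The summed granulocyte markers reached 13.22 there, and at most 5.27 in any other library. The microglial sum (9.65) was below those of normal replicate 1 (11.26) and glioma replicate 3 (13.68), where Plau was at 0. The part of these cells in the Plau value was not tested.

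**Figure D2:**
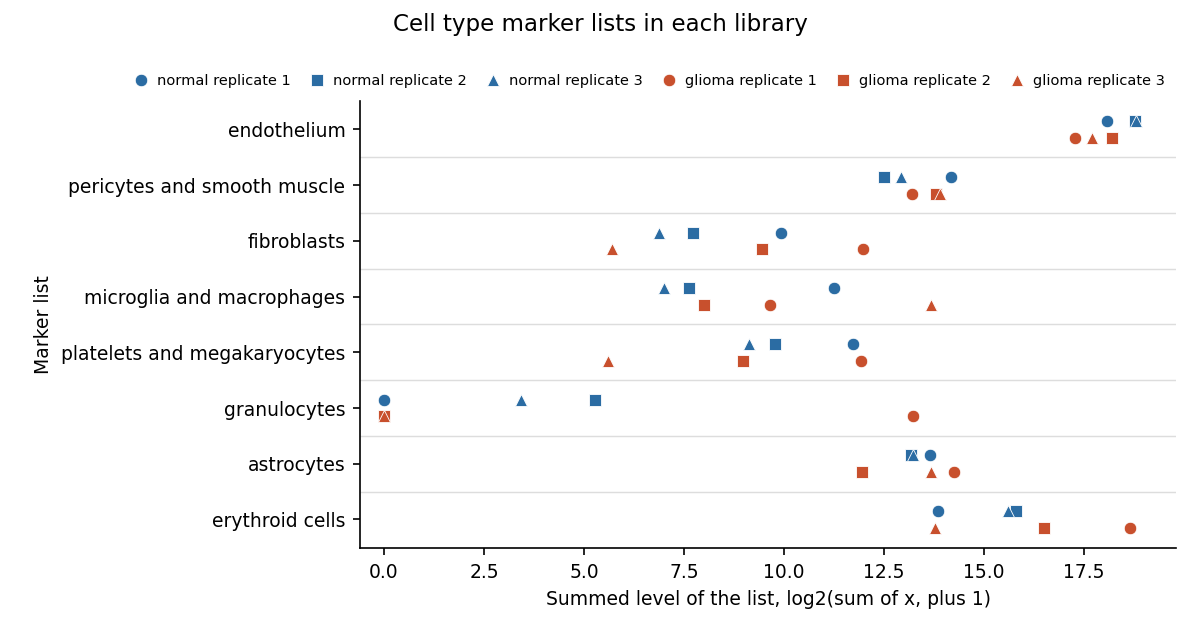
Summed level of each marker list (horizontal axis, log2 of the summed linear values plus 1) in the 6 libraries, normal in blue and glioma in orange, 1 marker shape for each replicate. Endothelial markers summed to 17.3 to 18.8, while granulocyte markers reached 13.22 in glioma replicate 1 and at most 5.27 elsewhere. Erythroid markers summed to 18.66 in glioma replicate 1, above its endothelial sum of 17.27. Hba-a1 and Hba-a2 hold the same value in each library (17.31 in glioma replicate 1), and both enter the erythroid sum.

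Anxa2 lies at 69453620 to 69491795 on the plus strand of chromosome 9, with 13 exons. The antisense gene Gm16144 and the microRNA gene Mir3109 lie within it, away from its 3′ end, and the use of strand in the counting was not given in the sources used here. Normal libraries read 14.24, 12.31 and 12.63, and glioma libraries 13.06, 13.66 and 12.45. The glioma values lay inside the normal range. Means were 13.06 ± 1.04 and 13.06 ± 0.60 (SD, n = 3 each), a difference of -0.0026 (SE 0.61, 95% interval -1.40 to 1.39, limma adjusted p = 0.999). That interval is the narrowest of the 6, and it leaves room for a difference of 1.39 in either direction. Without normal replicate 1, the library with the highest Anxa2, the difference was 0.59 (limma adjusted p = 0.678).

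S100a10, which encodes the partner p11 that forms the plasminogen-binding complex with annexin A2, was lower in each normal library (8.02, 2.84 and 5.66) than in any glioma library (9.97, 8.07 and 9.80), with a difference of 3.77 (SE 1.64, limma adjusted p = 0.875). The 2.84 is the lowest value above 0 in normal replicate 2. Without that library the S100a10 difference was 2.44, and at the floor of 7.43 it was 1.65. Anxa2 minus S100a10 within a library was 6.22, 9.47 and 6.97 for normal, against 3.08, 5.59 and 2.66 for glioma (the 9.47 is taken against that lowest value), lower in each glioma library than in any normal one. Of 12 annexin and S100 genes 9 were tested, with 3 wholly higher and 1 wholly lower in glioma (6.91% and 6.37% of all genes) and a median difference of 1.69. S100a11 was at 9.56, 8.52 and 8.98 for normal, against 10.95, 11.64 and 11.62 for glioma (difference 2.38, SE 0.55, limma adjusted p = 0.875). Anxa6, a membrane-binding annexin, was at 10.74, 10.04 and 9.79 against 12.54, 12.32 and 11.13 (difference 1.81, SE 0.55, limma adjusted p = 0.875). In the other direction, Anxa11 was at 8.80, 7.23 and 6.97 for normal, against 0, 5.97 and 6.51 for glioma (difference -3.51, -1.43 without glioma replicate 1 and -0.46 at the floor of 7.43). Anxa3 had the highest mean of the list, with overlapping groups and values from 10.49 to 11.49.

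Plaur, the receptor of the Plau product, was higher in each glioma library than in any normal one, at 0, 5.27 and 5.74 for normal, against 6.54, 8.32 and 9.70 for glioma (difference 4.52, SE 2.38, limma adjusted p = 0.875). Without normal replicate 1, where Plaur was at 0, its difference was 2.68, and at the floor of 7.43 it was 1.05. The 6.54 of glioma replicate 1 lies under that floor. The count of Plaur as wholly higher thus rests on a 0 that cannot be resolved below 7.43. Microglia and macrophages also carry Plaur. Their markers summed to 11.26, 7.62 and 7.0 for normal, against 9.65, 8.0 and 13.68 for glioma, highest in the library with the highest Plaur, with Adgre1 at 0 in all 6. Their part in the Plaur value was not tested.

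Of 15 further fibrinolysis genes 9 were tested, and 4 of these were wholly higher and 0 wholly lower in glioma (6.91% and 6.37% of all genes), among them Plaur, S100a10 and Eno1, with a median difference of 1.44. Eno1, an enolase that also binds plasminogen, was at 7.83, 7.14 and 7.30 against 9.29, 8.52 and 8.79, though it has a near-identical copy, Eno1b, with which reads can be split. Plasminogen itself (Plg) was at 0 in all libraries. Vtn, which encodes the adhesive protein vitronectin, was at 11.07, 10.17 and 9.90 for normal, against 9.33, 9.24 and 11.66 for glioma. Lrp1, an endocytic receptor that clears plasminogen activators, was at 9.22, 7.58 and 8.72 against 8.28, 8.30 and 9.56.

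**Figure D3:**
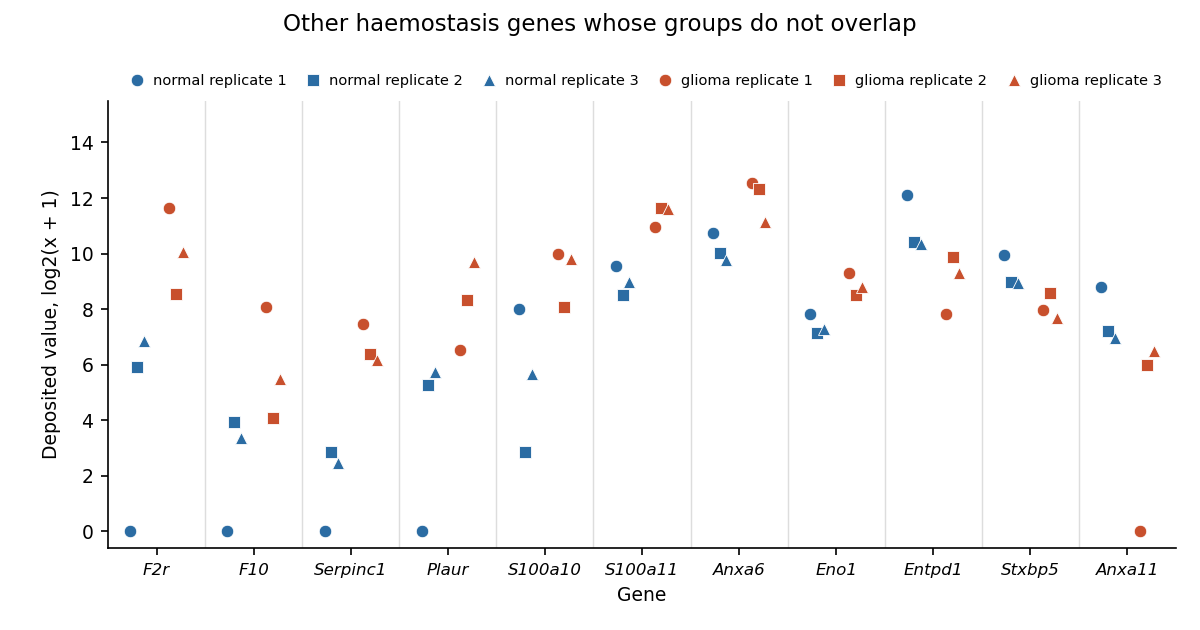
Deposited log2(x + 1) value (vertical axis) of tested pathway genes whose groups do not overlap (horizontal axis), in the 3 normal (blue) and 3 glioma (orange) libraries, 1 marker shape for each replicate. Entpd1, Stxbp5 and Anxa11 are lower and the others higher in glioma, none past the adjusted threshold, and for F2r, F10, Serpinc1 and Plaur the lowest value is the 0 of normal replicate 1.

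Over the 7 pathway lists, 96 genes other than the 8 were found and 59 tested. Of these 0 passed the limma threshold after adjustment over all genes, 6 had an unadjusted p under 0.05 (4.29% of all genes), 9 were wholly higher (6.91% of all genes) and 3 wholly lower in glioma (6.37% of all genes). Their median difference was 0.15, with 34 above 0. The wholly higher genes F10, Serpinc1 and Plaur have glioma values under 7.43, where the 0 of normal replicate 1 cannot be resolved. Among genes of platelet inhibition by endothelium, Entpd1, the ectoenzyme CD39 that removes ATP and ADP, was wholly lower, at 12.10, 10.41 and 10.36 for normal, against 7.84, 9.89 and 9.31 for glioma (difference -1.94, SE 0.76, limma adjusted p = 0.875). Its difference was -1.37 without normal replicate 1, -1.35 without glioma replicate 1 and -0.78 without both. Entpd1 was the only one of 8 tested genes of that list without overlap, beside 6.37% of all genes wholly lower. Nos3, the endothelial nitric oxide synthase, was at 9.25, 11.59 and 11.45 against 8.11, 11.10 and 12.13. Cd9 was at 9.90, 9.01 and 8.52 against 8.52, 9.06 and 9.38.

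Of transcription factors known to act on F3 or Thbd, 0 of 12 tested genes were wholly higher or lower in glioma, beside 6.91% and 6.37% of all genes, and the median difference was 0.13. Klf2, an activator of Thbd in flow-exposed endothelium, was at 13.74, 13.85 and 13.98 for normal, against 14.32, 12.90 and 14.04 for glioma. Erg was at 15.40, 12.57 and 13.57 against 13.71, 14.51 and 13.76, and Klf6 at 12.59, 13.41 and 13.38 against 11.38, 12.94 and 13.93. In glioma replicate 1, where Thbd was at 5.25, Klf2 was at its highest of the 6 libraries. Klf4 of the same list was at 11.35, 14.04 and 14.22 for normal, against 11.90, 12.09 and 12.74 for glioma. Klf4 was thus lowest in the first replicate of each group, as Thbd was. The part of these factors in the Thbd values was not tested.

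The 3 genes Vwf, Thbd and Plat were low together in glioma replicate 1. Their values there lay 3.16, 5.34 and 4.88 below the mean of glioma replicates 2 and 3. Among the 5880 genes above 0 in every library, 6.17%, 1.55% and 2.11% lay as far below or farther. Procr and Anxa2 differed there by 0.39 and 0.00039. Of the endothelial markers, Esam lay 2.99 below in the same comparison, Emcn 1.39 and Cldn5 1.13, and the other 7 lay between 0.79 below and 0.73 above. Normal replicate 1 deviated from normal replicates 2 and 3 by -2.77 for Thbd, -1.66 for Plat, 0.43 for Vwf, 0.96 for Procr and 1.77 for Anxa2. Thbd and Plat were therefore low in both first replicates. Erythroid markers summed to 13.86, 15.79 and 15.60 for normal, against 18.66, 16.49 and 13.77 for glioma, highest in glioma replicate 1. These sums count both Hba-a1 and Hba-a2, which hold the same value in each library. The part of erythroid cells in these low values of Thbd, Plat and Vwf was not tested.

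Leaving out these libraries changed which genes separated. Without glioma replicate 1, Vwf, Plat and Tfpi were wholly higher in glioma, where 15% of genes tested were wholly higher. Without both first replicates, with 2 libraries a group, the same 3 genes were wholly higher and Thbd wholly lower, where 24.6% of genes were wholly higher and 30.9% wholly lower. In that reduced comparison Vwf differed by 1.70 (SE 0.24, limma adjusted p = 0.126), Plat by 0.43 (SE 0.27, limma adjusted p = 0.436) and Thbd by -0.23 (SE 0.25, limma adjusted p = 0.626). The reduced comparison was chosen after the data were seen.

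**Figure D4:**
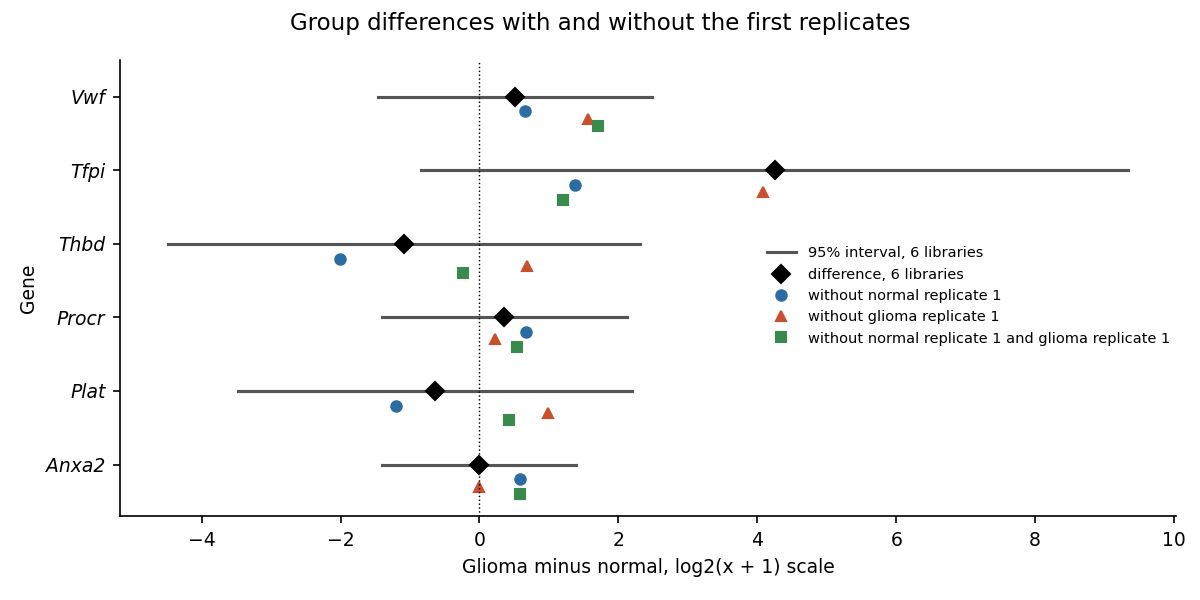
Glioma minus normal (horizontal axis, log2(x + 1) scale) for the 6 tested genes (vertical axis), with the 95% interval of the limma fit to 6 libraries and the differences without normal replicate 1, without glioma replicate 1 and without both. Each interval spans 0, and Plat moves from -0.64 to 0.98 without glioma replicate 1.

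Genes with the most similar shape over the 6 libraries were found by the root-mean-square difference of centred log2 values, among the 5880 tested genes above 0 in every library. For Anxa2 they were Slc35e1 (0.094) and Chst2 (0.136), and for Procr Esm1 (0.179) and Msh3 (0.188). For Thbd they were Tom1l2 (0.209) and Kitl (0.230), for Plat Nmi (0.229) and Scarb1 (0.243), and for Vwf Ankrd13a (0.263) and Vps28 (0.270). Esm1, a secreted endothelial proteoglycan, stood at 9.29, 7.90 and 7.98 for normal, against 9.31, 9.88 and 7.38 for glioma, the shape of Procr at a lower level. With 6 libraries and this many genes such likeness describes these libraries only.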

How the data were processed

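RNA of sorted endothelial cells was made into QuantSeq 3′ libraries, per the labels' protocols. Per the submitters' processing notes, Bowtie2, edgeR and mm10 are named, with no role or version stated. The counting tool and its use of strand were not given in the sources used here. The deposited log2 values have the form of log2(x + 1) levels with the same distribution in 6 libraries, a scale read from the values and stated in no label. The values are not read counts, so depth is unknown and no counting interval is given.

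Genes reaching a linear value of 1 in 3 or more libraries were fitted with limma 3.58.1 (R 4.3.3), with a mean trend, the group as the term and 4 residual degrees of freedom. Adjustment was by the Benjamini-Hochberg method over all 11862 genes, with a threshold of 0.05, and the script was tested on simulated data. Groups of 3 do not overlap when every library of one lies beyond the other. Of 226 list symbols 222 matched as written, 1 under another symbol and 3 not. The members and lists were chosen with earlier results of these data known.

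From each pathway list the rule named the 4 highest genes by mean and up to 3 genes without overlap ranked by difference, and other genes named were chosen after their values were seen. A gene that the rule also named is not reported here. Loci are from GENCODE M21 (GRCm38, the mm10 assembly), and promoter windows from RefSeq. Alternatives covered filters, floors, pseudocount, centring, variance models, the replicate block and each library left out.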

Additional observations from a re-analysis of the deposited data

How the results depend on the processing

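Adjusted p stayed above 0.05 for the 6 tested genes of the 8 under each alternative run. Over all genes, 15 passed with limma without the mean trend and 322 with library weights, whose estimation stopped before convergence, against 0 with each other alternative. Library weights also called Anxa6 and S100a11 (adjusted p = 0.0278 for each). Directions turned for Anxa2 with libraries centred on their median (0.090), with library weights (0.76), without both first replicates (0.59), and without normal replicate 1 (0.59) or glioma replicate 3 (0.30). They turned for Thbd (0.69) and Plat (0.98) without glioma replicate 1, for Plat without both first replicates (0.43), for Procr without glioma replicate 2 (-0.18) and for Vwf without glioma replicate 3 (-0.10). With libraries left out, differences ranged from -0.10 to 1.70 for Vwf, -2.07 to 0.69 for Thbd, -0.18 to 1.03 for Procr, -1.58 to 0.98 for Plat and -0.38 to 0.59 for Anxa2. Tfpi kept its sign in the 14 alternatives that gave it a value, from 0.89 with library weights to 5.69. The number of the 8 genes without overlap was 1 to 3 with a library left out, and 4 without both first replicates. Counts over the 11862 genes tested rose as well, from 820 wholly higher and 756 wholly lower with all libraries. They were 1745 and 2452 without normal replicate 1, and 1775 and 1436 without glioma replicate 1. Without glioma replicate 3 they were 1469 and 1191, and without both first replicates 2922 and 3660. Centring moved the median difference of all genes to 0.13. The replicate block left 0 genes past the threshold (smallest adjusted p = 0.790) and changed no call. Whether same-numbered libraries share more than a number is not given. Their deviations correlated at 0.19, 0.15 and 0.06, and normal replicate 3 correlated best with glioma replicate 2 (0.19). Correlations this low cannot decide whether the libraries were paired. Without depth, a 0 in normal replicate 1 cannot be resolved below 7.43.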
